A study of Homo sapiens with 2 samples.

Results

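The genes described here are 70 human genes, nearly all of endosomal sorting, whose symbols begin with VPS, CHMP or SNX followed by digits, out of 18336 genes that single-gene probes measured on the array. They were chosen by symbol alone, from probes whose platform annotation names exactly 1 gene, and they were read by 101 of the 24740 such probes. RNA came from SAS, an established cell line grown from a human squamous carcinoma of the tongue: 1 neo control sample and 1 shATMIN sample, which carried a short hairpin RNA against ATMIN. ATMIN is a zinc finger transcription factor that also interacts with the ATM kinase, and the study asked what its loss does to the progression of cancer. Per the labels, both samples were treated alike with hairpin plasmids, a lipid reagent and, after 24 h, 3 µg/mL puromycin in medium with 10% serum, and resistant clones were grown. What the neo control carried and how many clones went into each sample are not stated.

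With 1 sample per group there is no replicate check, so no difference below was tested and no p-value is given. Each value is 1 linear intensity per probe and sample, and a difference is log2(intensity + 1) in the shATMIN sample minus that in the neo control. Pairs of intensities are given with the neo control first and the shATMIN sample second, and pairs of readings in the same order. Adding 1 before the logarithm makes differences of dim genes look smaller. A gene is represented by its brightest probe and was compared where the mean log2 level of that probe reached 5.90, the 40th percentile of all probes. In RNA from a whole culture, fewer cells that express a gene and less RNA per cell cannot be told apart. The values were used as deposited, where the upper quartile was 629 and 535 in the samples, and the median difference over 12421 compared genes was -0.16. Each direction was therefore also read after scaling to the 75th percentile, after quantile normalization and after removal of the trend of the difference on level. Together with the deposited values these are called the 4 scalings below.

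ATMIN itself read 105 and 61.5, a difference of -0.76. Its other, dimmer probe read 51.5 and 26.5. All 10 squamous epithelium markers were compared, 4 lower and 6 higher as deposited, and 3 of them differed by more than any of the 62 genes compared below. TP63, a transcription factor of squamous cells, read 4717 and 2060.4, a difference of -1.19, with -0.06 on another probe. The keratin genes KRT6A and KRT14 stood at differences of 0.997 and 0.992, just under 2-fold, and KRT5, a basal keratin, read 13322 and 16170. Of the leukocyte, fibroblast and endothelium markers 2 of 5, 2 of 6 and 4 of 5 were compared. The leukocyte markers CD14 and CD68 read 2858 and 2602, and 272 and 174, whereas the pan-leukocyte gene PTPRC read 13.5 and 14. The collagen gene COL1A1 read 459 and 423, and COL3A1 read 2.50 and 2.00. The endothelial genes CDH5 and TEK read 175 and 115, and 148 and 195. None of these markers was at 0, and the summed intensities of the 3 lists were 3164 and 2812, 667 and 628, and 609 and 597. The part of the markers of any list in the values below was not tested.

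Endosomes receive membrane proteins from the cell surface and the Golgi, and sorting machines decide whether a protein is recycled or degraded. Retromer and the sorting nexins carry proteins back out of the endosome, and the GARP complex tethers the returning carriers at the Golgi. The ESCRT complexes pull ubiquitin-tagged receptors into inner vesicles for breakdown and also cut membranes in cell division, while CORVET and HOPS tether endosomes and lysosomes before fusion.

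Most of these genes read slightly lower in the shATMIN sample, and none reached a 2-fold difference. Of the 70 genes 62 were compared and 8 lay below the required level. Among the 62, 0 were at least 2-fold lower and 0 at least 2-fold higher, where 1.34% and 0.459% of all compared genes were. As deposited, 49 of the 62 were lower and 13 were higher, against 70.7% lower and 29.3% higher among all compared genes. Their median difference was -0.37, against -0.16 over all compared genes. Over all 70, without the level requirement, 52 were lower and the median was -0.32, against 60.3% lower and a median of -0.08 over the 18336 genes.

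At the looser size of 1.5-fold, 13 of the 62 were lower, which is 21.0% against 12.2% of all compared genes, and 0 were higher against 1.9%. These 13 were VPS36, VPS37A, VPS37B, VPS51, VPS52, CHMP1B, CHMP4C, VPS13C, SNX6, SNX19, SNX25, VPS33B and VPS72. With scaling to the 75th percentile 2 of them, VPS36 and VPS72, were still at least 1.5-fold lower (3.9% of all compared genes) and SNX12 was at least 1.5-fold higher (5.05%). After quantile normalization VPS36, VPS72, VPS37A and SNX19 were lower by that size (4.96%) and SNX12 was higher (3.57%). The same 5 genes passed after removal of the level trend, where the shares of all compared genes were 4.63% and 3.67%.

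**Figure D1:**
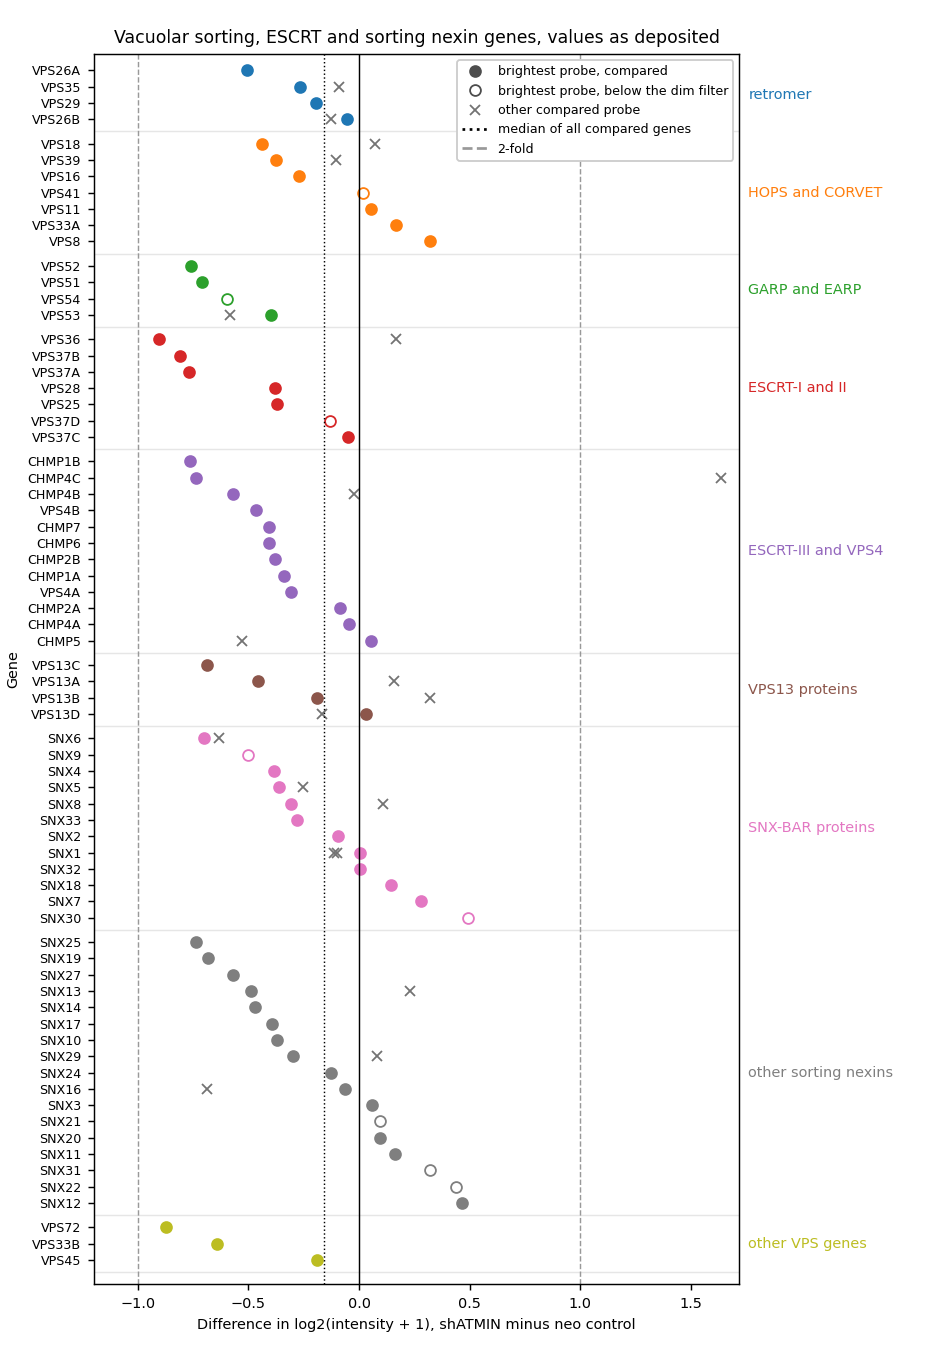
Difference in log2(intensity + 1), shATMIN minus neo control, of all 70 genes, grouped by complex or family. Filled circles are the brightest probes of the 62 compared genes, open circles the 8 genes below the required level and crosses the other compared probes. The dotted line is the median of all compared genes at -0.16 and the dashed lines mark 2-fold. The ESCRT, GARP and EARP genes lie mostly left of the dotted line, HOPS and CORVET genes on both sides of 0, and a dim CHMP4C probe stands alone at 1.64.

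Because 70.7% of all compared genes were lower as deposited, the sign of a small difference depends on the scaling. After scaling to the 75th percentile 39 of the 62 were lower, where 41.2% of all compared genes were. After quantile normalization 40 were lower, against 49.5%, and after removal of the level trend 40, against 48.5%. The median of the 62 genes was -0.13, -0.13 and -0.12 in turn, and that of all compared genes 0.07, 0.002 and 0.01. Under all 4 scalings 39 genes were lower (39.7% of all compared genes) and 13 were higher (29.2%). The remaining 10 were lower as deposited and changed sign under at least 1 scaling: VPS26B, VPS29, VPS37C, CHMP2A, CHMP4A, VPS13B, VPS45, SNX2, SNX16 and SNX24.

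**Figure D2:**
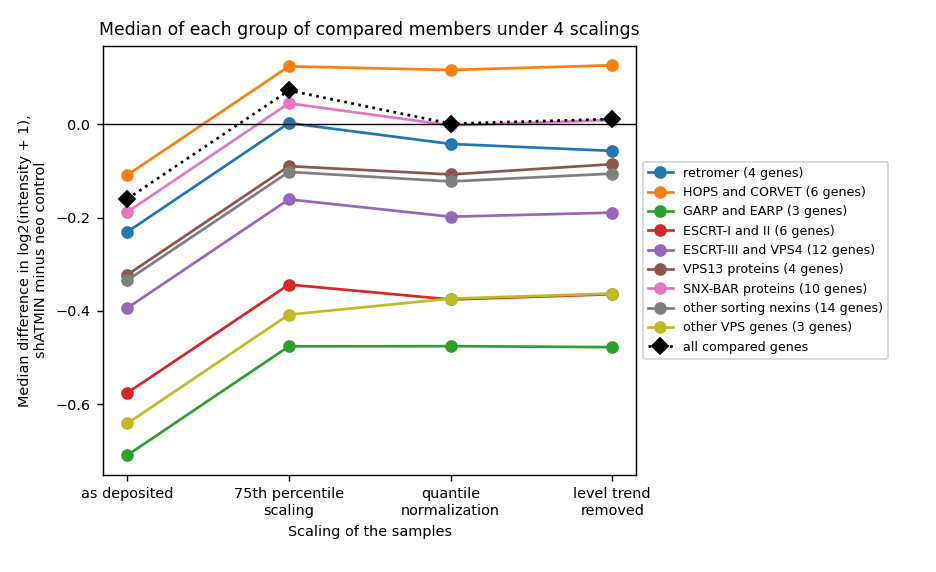
Median difference of each group of compared genes (vertical axis, log2 scale) under the 4 scalings (horizontal axis), with the number of genes in the key. The black diamonds are the medians of all compared genes. GARP and EARP lie at -0.71 to -0.48, ESCRT-I and II at -0.58 to -0.34 and the other VPS genes at -0.64 to -0.36. These groups lie furthest below the diamonds in all 4. The remaining groups also lie below the diamonds in all 4, except HOPS and CORVET, which lie above them in all 4.

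The core of retromer, the trimer that selects cargo for return, was measured by 4 genes. VPS35, the scaffold subunit, read 45513 and 37886, a difference of -0.26, and the second probe gave 7072 and 6642. VPS26A, an arrestin-like subunit, read 7084 and 4989, a difference of -0.51. VPS26B, its paralogue, read 291 and 279.6, a difference of -0.06 that was above 0 under the other 3 scalings. The readings behind the VPS26B values, 267 and 314 against 239.6 and 319.6, overlapped. VPS29, which retromer shares with the retriever complex, read 6195 and 5405, a difference of -0.20 that was 0.04, 0.03 and 0.02 under the other scalings. VPS26A was thus the retromer gene with the greatest distance from 0 as deposited, and it and VPS35 were lower under all 4 scalings. Its range over them was -0.51 to -0.27, and that of VPS35 was -0.26 to -0.03.

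Retriever, a related trimer, holds VPS29 together with VPS35L and VPS26C, which the platform lists under older symbols and which are therefore not among the 70. VPS35L read 82.5 and 71.0, a difference of -0.21, and VPS26C read 1941 and 2165, a difference of 0.16. As deposited, the subunits of retriever other than VPS29 thus had opposite signs.

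HOPS and CORVET share 4 core subunits, and the core genes went both ways. VPS18 read 445 and 329, a difference of -0.44, but its other compared probe gave 0.07. VPS16 read 443 and 367, a difference of -0.27. VPS11 read 2747 and 2850, a difference of 0.05. VPS33A, the SM protein that acts on SNARE complexes, read 461 and 517, a difference of 0.17. VPS18 and VPS16 were lower and VPS11 and VPS33A higher under all 4 scalings, although VPS16 came within -0.04 of 0.

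The subunits that set the complexes apart also differed. VPS8, the RAB5-binding subunit of CORVET, read 278 and 349, and its difference of 0.32 was the second highest of the 62 genes. The readings behind it were 277 and 280.4 against 330.4 and 367, so they did not overlap. A second VPS8 probe was near the bottom of the range at 2.00 and 6.50. TGFBRAP1, the other subunit particular to CORVET, has a symbol outside the 70. It read 108 and 132, a difference of 0.28, and was higher under all 4 scalings. VPS39, the RAB7-binding subunit of HOPS, read 647 and 498, a difference of -0.38, and its other compared probe gave -0.10. VPS41, the other HOPS subunit, was below the required level at 44.0 and 44.5. As a group, without TGFBRAP1, 3 of 6 compared genes were lower and 3 higher as deposited, against 70.7% and 29.3% of all compared genes. The median was -0.11 as deposited and 0.12, 0.12 and 0.13 under the other scalings.

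GARP, which tethers carriers at the Golgi, and EARP, which works in endocytic recycling, share VPS51, VPS52 and VPS53. All of these were lower under all 4 scalings, where 39.7% of all compared genes were. VPS52 read 650.4 and 384, a difference of -0.76. Its readings of 622 and 678 in the control lay clear of 382 and 385. VPS51 read 5817 and 3556, a difference of -0.71. VPS53 read 332 and 251, a difference of -0.40, and the second probe gave 162 and 108, or -0.58. This was the group with the lowest median, -0.71, and it was -0.48 under each other scaling. VPS54, the subunit particular to GARP, was below the required level at 27 and 17.5. VPS50, which replaces VPS54 in EARP and is listed under an older symbol, read 1888 and 1639, a difference of -0.20, whereas another probe of it read 187 and 321, a difference of 0.78.

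ESCRT-I binds ubiquitin-tagged cargo and ESCRT-II links it to ESCRT-III. All 6 compared genes of these complexes among the 70 were lower as deposited, where 70.7% of all compared genes were. Subunits with symbols outside the 70, counted with the ESCRT partners below, went both ways. SNF8 of ESCRT-II stood at 0.11. In ESCRT-I, UBAP1 stood at 0.19, TSG101 at -0.05, MVB12A at -0.36 and MVB12B at -0.33. SNF8 and UBAP1 were higher, and MVB12A and MVB12B lower, under all 4 scalings, while TSG101 was below 0 only as deposited. The VPS37 paralogues are alternative subunits of ESCRT-I. VPS37B read 2054 and 1172, a difference of -0.81. VPS37A read 184 and 108, a difference of -0.77, with readings of 183 and 185 in the control and 103 and 112 in the shATMIN sample. VPS37C read 620.5 and 600.02, a difference of -0.05 that was 0.19, 0.19 and 0.21 under the other scalings, and VPS37D was dim at 22 and 20. The paralogues therefore differed among themselves, with VPS37A and VPS37B lower under all 4 scalings and VPS37C near 0.

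VPS28, which joins ESCRT-I to ESCRT-II, read 370.4 and 284, a difference of -0.38. In ESCRT-II, VPS25 read 2360.03 and 1822, a difference of -0.37. Both were lower under all 4 scalings, down to -0.15 and -0.10 at the smallest. VPS36, the ubiquitin-binding subunit of ESCRT-II, read 1228 and 655, and its difference of -0.91 was the lowest of the 62 genes. The second probe gave 489 and 550.02, or 0.17, so the position of VPS36 rests on 1 of 2 probes. The median of the 6 genes was -0.58 as deposited and between -0.38 and -0.34 under the other scalings.

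ESCRT-III proteins polymerise into the filaments that constrict membranes, and VPS4 ATPases take the filaments apart. As deposited, 11 of 12 compared genes of this group were lower, against 70.7% of all compared genes, with a median of -0.39. Under all 4 scalings 9 were lower, against 39.7%. CHMP1B read 536 and 316, a difference of -0.76, with readings of 533 and 539 against 295 and 336. CHMP4B, the main filament former, read 17547 and 11832, a difference of -0.57, but the second probe gave 2099 and 2069, or -0.02. CHMP4A, its paralogue, read 1147 and 1110.07, a difference of -0.05 that was above 0 under the other 3 scalings.

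CHMP4C, a paralogue that acts in the abscission checkpoint of dividing cells, had probes that disagreed most. Its brightest probe read 985 and 591, a difference of -0.74, with readings of 962 and 1007 against 535 and 647. A dim probe read 41.6 and 132, a difference of 1.64, the only difference of 2-fold or more among 82 compared probes of the 62 genes. Behind its neo control value stood readings of 2.00 and 81.2, and behind the shATMIN value 121 and 142, so the size of this difference rests on 1 low reading. The CHMP4C probes therefore give no common direction.

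CHMP2A and CHMP2B, which act late in the filament, read 1925 and 1814, and 9550.2 and 7332, differences of -0.09 and -0.38. Only the difference of CHMP2B kept its sign under all 4 scalings. CHMP1A read 5156 and 4075, CHMP6 read 196 and 148, and CHMP7, which acts at the nuclear envelope, read 1867 and 1408. Their differences of -0.34, -0.41 and -0.41 were below 0 under all 4 scalings. CHMP5 was the exception as deposited, at 7109 and 7388 with a difference of 0.06, but the second probe gave 2529 and 1755, or -0.53. The ATPase gene VPS4B read 769 and 557, a difference of -0.46, and VPS4A read 77.5 and 62.5, a difference of -0.31. Both ATPase genes were lower under all 4 scalings.

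The VPS13 genes encode long proteins that move lipids between membranes, and their probes rarely spoke with one voice. VPS13C read 307 and 190.5, a difference of -0.69, with readings of 289.6 and 324 against 182 and 199. A second VPS13C probe, below the required level, gave 29.0 and 44.5, or 0.60, and the mean of both probes was -0.04. VPS13A read 628 and 457 on its brightest probe, a difference of -0.46, and 0.16 on another. VPS13B gave -0.19 and 0.32, and VPS13D gave 0.03 and -0.17. The median of the 4 was -0.32 on the brightest probes, and VPS13A and VPS13C were lower under all 4 scalings.

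SNX-BAR proteins are sorting nexins with a membrane-bending BAR domain, and those that work beside retromer form pairs of SNX1 or SNX2 with SNX5 or SNX6. The members of these pairs read differently. SNX6 read 4212 and 2589, a difference of -0.70, and the second probe gave 3278 and 2116, or -0.63. SNX5 read 1535 and 1196, a difference of -0.36, with -0.25 on its other probe. SNX6 and SNX5 were lower under all 4 scalings. SNX1 read 4152 and 4160.4, a difference of 0.003, and its other probes gave -0.10 and -0.11. SNX2 read 1428 and 1336, a difference of -0.10 that was 0.14, 0.18 and 0.18 under the other scalings. SNX32, a relative of SNX5 and SNX6, read 165 and 166, with overlapping readings in the samples.

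The remaining SNX-BAR genes fell on both sides of 0. SNX4, which acts in recycling and autophagy, read 1026 and 787, a difference of -0.38. SNX7, which works with SNX4, read 1644 and 1998, a difference of 0.28 that lay between 0.51 and 0.56 under the other scalings. SNX30, the third of that set, was dim at 26.0 and 37.0. SNX8 gave -0.31 on 1 probe and 0.11 on another. Among those with an SH3 domain, which act in endocytosis, SNX33 read 345 and 284, SNX18 read 201 and 223, and SNX9 was dim at 19.5 and 13.5. Over the 10 compared SNX-BAR genes 6 were lower as deposited, against 70.7% of all compared genes. Their median of -0.19 was 0.05, -0.002 and 0.01 under the other scalings, close to that of all compared genes.

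The RGS-PX sorting nexins, a family found at endosomes and at contacts with the endoplasmic reticulum, were all lower under all 4 scalings. That held for 39.7% of all compared genes. The median of the family was -0.58 as deposited. SNX25 read 1974 and 1184, a difference of -0.74. SNX19 read 132 and 82.0, a difference of -0.68, with readings of 125 and 139 against 65.1 and 98.8. SNX13 read 907 and 647, a difference of -0.49, but the second probe gave 657 and 770.1, or 0.23. SNX14 read 409.97 and 296, a difference of -0.47. SNX25, SNX19 and SNX14 have 1 probe each, so SNX13 was the only one of these genes in which probes could be compared.

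The PX-FERM sorting nexins bind cargo tails directly. SNX27, which brings receptors with a PDZ-binding tail to retromer, read 1430 and 963, a difference of -0.57, and SNX17, which returns LRP1 and integrins to the surface, read 2046 and 1558, a difference of -0.39. Both were lower under all 4 scalings, and SNX31 was dim at 5 and 6.50.

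Sorting nexins that consist of little more than a PX domain, which binds phosphoinositides, included the highest gene of the set. SNX12 read 456 and 630, and its difference of 0.47 was the highest of the 62 genes. Its readings of 441 and 471 lay clear of 623 and 638, and its difference ranged from 0.47 to 0.72 over the 4 scalings. SNX11 read 1972 and 2206, a difference of 0.16, and SNX3, which is a retromer partner and the closest relative of SNX12, read 17816 and 18572, a difference of 0.06. These 3 were higher under all 4 scalings, and each of them rests on 1 probe. SNX10, which acts in osteoclasts and in vacuole formation, read 1229 and 950.0, a difference of -0.37. SNX24 read 186 and 171, and SNX22 was dim at 7.50 and 10.5.

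Of the other sorting nexins, SNX16 read 143 and 137 on its brightest probe, a difference of -0.06, and 86.0 and 53.0 on another, a difference of -0.69. SNX29 gave -0.30 and 0.08 on its probes. SNX20, which binds the selectin ligand PSGL-1, read 133 and 142 with overlapping readings, and its relative SNX21 was dim at 21.5 and 23.0.

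The 3 VPS genes outside these complexes were lower as deposited, where 70.7% of all compared genes were. VPS72, which despite its name encodes a subunit of chromatin remodelling complexes, read 896 and 489, a difference of -0.87, with readings of 836 and 957 against 482 and 495. It was the second lowest of the 62 genes and rests on 1 probe. VPS33B, which pairs with VIPAS39 in a complex related to HOPS, read 1638 and 1050, a difference of -0.64. VPS45, an SM protein of early endosomes, read 873 and 766, a difference of -0.19 that was above 0 under the other 3 scalings.

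Separate probes of a gene gave a spread between measurements of it, but all were read in the same pair of samples. It is no spread between replicates. Over 2973 genes with several compared probes the SD between probes of a gene was 0.34, and over the 19 such genes of this set it was 0.49, or 0.33 without CHMP4C. Of the 62 genes 32 were lower by more than 0.34, against 29.9% of all compared genes, and 1, SNX12, was higher by more, against 5.31%. In 8 of the 19 genes all compared probes had one sign, 42.1% against 62.8% over all 2973. The brightest probe was lower and another higher in 8 genes, and the reverse held in 3.

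The brightest probes of the 19 genes had a median of -0.36, with 16 lower, and their 20 other compared probes had a median of -0.10, with 12 lower. Over all genes with several compared probes the same medians were -0.19 and -0.14. Of those brightest and other probes 73.0% and 67.5% were lower, against 84.2% and 60% in this set. The low median of these genes was thus seen on the brightest probes and not on the others. No compared probe went against the brightest in 51 genes, 43 of which have only 1 compared probe. Among the 51, 32 were lower and 10 higher under all 4 scalings. Over all compared genes, whatever their other probes gave, these shares were 39.7% and 29.2%.

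**Figure D3:**
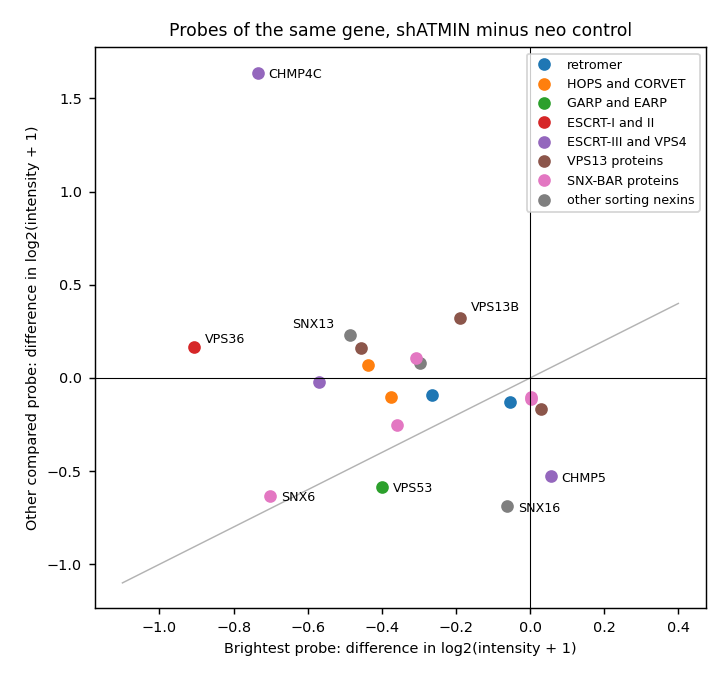
Difference of each other compared probe (vertical axis) against that of the brightest probe of the same gene (horizontal axis), both in log2(intensity + 1), for the 19 genes with several compared probes. The grey line marks equal differences and colours mark the groups. SNX6 and VPS53 are lower on both probes, while CHMP4C, VPS36 and SNX13 lie at the upper left, lower on 1 probe and higher on the other.

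A deposited value under 1000 could be resolved into the 2 readings whose mean it is, which gives a technical spread within each sample. Whether these readings are the 2 arrays listed for each sample is not stated. For 34 of the compared genes both samples were resolved, and the SD of a single reading on the log2 scale was 0.11 for the control and 0.13 for shATMIN. In 23 of the 34 both shATMIN readings lay below both control readings, which is 67.6% against 48.4% of 7482 compared genes. In 4 of them, SNX12, VPS8, VPS33A and SNX18, both lay above, against 21.1%, and in 7 the readings overlapped, against 30.5%. This order is read from unscaled values and carries the shift of -0.16 over all compared genes.

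**Figure D4:**
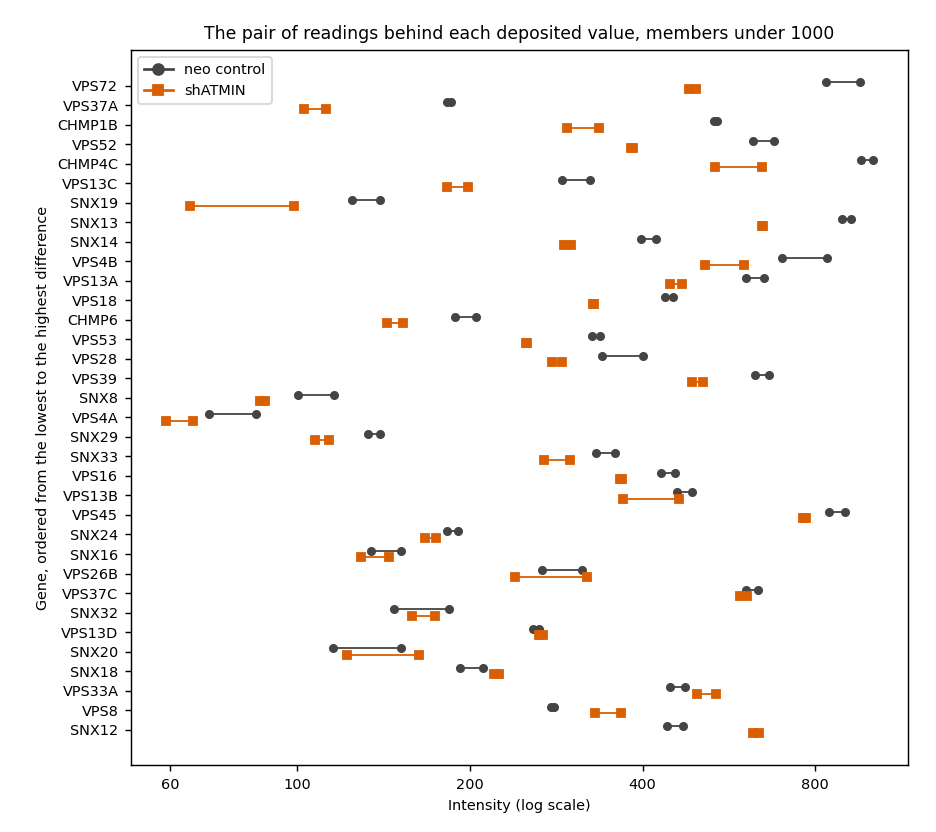
The 2 readings behind the deposited intensity (horizontal log axis) of each of the 34 genes under 1000, in the neo control (grey circles) and the shATMIN sample (orange squares), from the lowest difference at the top to the highest at the bottom. Lines join the readings of a sample. The pairs lie apart for VPS72, VPS37A and VPS52 at the top and for SNX12 and VPS8 at the bottom, and they overlap for VPS26B, SNX16 and SNX20.

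Endosomal and lysosomal genes are known to hold the E-box CACGTG, which the transcription factor TFEB reads. Promoters of 300 bases from RefSeq, build GRCh38.p14, were matched for 50 of the 70 genes, with 64 promoters in all. CACGTG, a palindrome and so the same on both strands, was found in 8 of the 64 promoters, 12.5% against 7.26% of 35116 promoters of the same length. These shares count promoters, and overlapping promoters of VPS11 with an E-box in common are each counted. By gene CACGTG was found in 7 of the 50. The match is a description of letters and not of binding. The windows below surround the E-box in the promoters of the lowest and the highest genes that hold it and of both HOPS and CORVET core genes that do, in the direction of the gene and with the E-box in capitals, and were picked with the values known.
VPS36, chr13:52450287-52450346, minus strand: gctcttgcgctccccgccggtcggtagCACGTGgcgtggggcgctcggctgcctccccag
VPS37B, chr12:122896131-122896190, minus strand: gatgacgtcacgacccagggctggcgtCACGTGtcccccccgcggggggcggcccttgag
VPS16, chr20:2840652-2840711, plus strand: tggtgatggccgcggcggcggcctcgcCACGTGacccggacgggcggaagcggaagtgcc
VPS11, chr11:119067735-119067794, plus strand: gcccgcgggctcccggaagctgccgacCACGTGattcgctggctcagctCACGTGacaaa
VPS8, chr3:184812156-184812215, plus strand: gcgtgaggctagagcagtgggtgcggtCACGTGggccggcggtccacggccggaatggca
The genes with the same E-box thus ran from VPS36 at -0.91 to VPS8 at 0.32. The 7 genes with it, which include SNX8 and CHMP4A, had a median of -0.27, and the 37 compared genes with a promoter but without it had a median of -0.34.

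Other genes of the same routes were read from lists of partners, again with 0 genes past 2-fold in either direction. Among ESCRT partners 11 of 15 compared genes were lower as deposited, near the 70.7% of all compared genes, with a median of -0.23 that became 0.002, -0.09 and -0.07 under the other scalings. PDCD6IP, which encodes the ESCRT-III adaptor ALIX, read 811 and 426, a difference of -0.93. CC2D1A and CC2D1B, which bind CHMP4 proteins, stood at -0.72 and -0.60. In the WASH and CCC complexes, which act with retromer and retriever, 10 of 15 were lower, again near 70.7%, with a median of -0.08 that was above 0 under the other scalings. WASHC5 and WASHC4, subunits of the WASH complex, stood at -0.75 and -0.56. COMMD2 stood at -0.56 with 0.28 on another probe.

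Among endosomal RABs, tethers and SNAREs 16 of 22 were lower, near 70.7% as well, with a median of -0.15 that was also above 0 under the other scalings. RABEP1, a RAB5 effector, read 1985 and 1093, a difference of -0.86 on each of 2 probes. RAB11A, of recycling endosomes, stood at -0.60 and -0.94 on its probes, and RAB5C at -0.50. Among the class III PI3K and PIKfyve genes, which make the lipids that PX domains bind, 9 of 10 were lower, against 70.7%, and the median of -0.43 was -0.19, -0.26 and -0.26 under the other scalings. The phosphatase genes MTM1 and MTMR2, which remove the same lipids, stood at -0.76 and -0.75, and PIK3R4, the regulatory subunit, at -0.64.

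Among retromer cargoes 7 of 9 were lower, against 70.7%, with a median of -0.36 that was -0.13, -0.20 and -0.20 under the other scalings. SORT1, the sorting receptor sortilin, read 352 and 186, a difference of -0.92. TGOLN2, a protein of the trans-Golgi network, stood at -0.77 on 1 probe and -0.09 on another. IGF2R, the receptor that delivers lysosomal enzymes, read 345 and 247, a difference of -0.48. SORT1 and IGF2R, each with 1 compared probe, were lower under all 4 scalings.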

How the data were processed

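RNA of 1 neo control and 1 shATMIN sample was labelled with Cy5 and measured on 1-colour arrays, per the labels, which list 2 arrays per sample. The deposited values are linear intensities, with 46 and 41 values below 0. How the authors scanned, corrected, combined and normalized the arrays is not stated. The number of arrays limits the precision.

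Values below 0 were set to 0. Members were chosen from the platform annotation as written, and VPS9D1 was left out because its symbol goes on after the letter. Elsewhere 1948 of 24740 symbols were updated through RefSeq (GRCh38.p14). The 70 genes and all lists were chosen with earlier results of these data known, and every member could be named by rule. In each list of other endosomal genes the 3 greatest absolute differences were named. Listed subunits of ESCRT-I, ESCRT-II and CORVET were also named beside their complexes. No test was possible. A value v under 1000 was resolved as the mean of whole readings with factors 1.0022 and 0.9978 (neo control) or 1.0019 and 0.9981 (shATMIN). The tolerance was 0.03 of 1 unit in the difference of the readings for low values and widened in proportion to v for larger ones. At least 99.3% of values were resolved. In the shATMIN sample 5.74% of values between 100 and 1000 had more than 1 solution, and the closest pair was taken. The level trend was a loess with span 0.3. The 2-fold rule and the recovery of readings were tried on simulated data. Medians, sign counts and differences under 2-fold were not tried in this way. Python 3.11.15, pandas 2.3.3, NumPy 2.4.6, SciPy 1.17.1, statsmodels 0.14.6 and matplotlib 3.10.9 were used.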

Additional observations from a re-analysis of the deposited data

How the results depend on the processing

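No paired analysis was possible because each group has 1 sample, and no replicate could be left out. The absence of 2-fold differences held under all alternatives except when each compared probe was counted on its own, where 1 of 82 passed (the dim CHMP4C probe). At a size of 1.5-fold 13 of 62 genes passed. The count of lower genes, 49 of 62, ran from 39 (scaling to the 75th percentile) to 50 (mean of all probes) where the 62 genes were kept. The shares of all compared genes were 70.7%, 41.2% and 69.9% in turn. Of 82 compared probes 61 were lower, near the 70.0% of all compared probes that name 1 gene. The overall median of -0.37 was -0.13 with scaling to the 75th percentile, -0.13 after quantile normalization, -0.12 without the level trend and -0.25 with the mean of all probes. Scaling to the 75th percentile gave group medians of 0.0030 for retromer, 0.12 for HOPS and CORVET, -0.48 for GARP and EARP, -0.34 for ESCRT-I and II, -0.16 for ESCRT-III and VPS4, -0.089 for VPS13, 0.045 for SNX-BAR, -0.10 for other sorting nexins and -0.41 for other VPS genes. Quantile normalization gave, in that order, -0.042, 0.12, -0.48, -0.38, -0.20, -0.11, -0.0019, -0.12 and -0.37, and removal of the level trend -0.057, 0.13, -0.48, -0.36, -0.19, -0.085, 0.0094, -0.11 and -0.36. HOPS and CORVET stood at 0.016 without a dim filter and with a dim filter at the 25th percentile, at -0.0084 with the mean of all probes, and at 0.053 without the 11 genes whose compared probes differ in sign. ESCRT-I and II stood at -0.38 without a dim filter, with a dim filter at the 60th percentile, with the mean of all probes, with each probe on its own and without genes whose probes differ in sign. VPS13 stood at -0.056 with the mean of all probes, -0.17 with each probe on its own and -0.69 without genes whose probes differ in sign, which left 1 gene. Other sorting nexins stood at -0.13 without a dim filter. GARP and EARP stood at -0.55 with VPS50 added, an alternative chosen after seeing the data, as was the removal of genes whose probes differ in sign. A pseudocount of 16, removal of probes over 60000 and platform symbols without update moved no median by more than 0.1. Of single genes, 10 changed sign with scaling, 9 each after quantile normalization and trend removal, and 5 with the mean of all probes. The cause of these shifts was not tested, beyond the constant of 0.23 that scaling to the 75th percentile adds.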

Other observations

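Some probes of the same families were left out because they name more than 1 gene. CHMP3, an ESCRT-III gene whose transcripts overlap those of the RNF103-CHMP3 readthrough, was read by 2 such probes: 1 read 297 and 238, control first, a difference of -0.32, and the other read 1289 and 1699, a difference of 0.40. SNX15, a sorting nexin with a microtubule-interacting domain that shares its probe with the ARL2-SNX15 readthrough, read 1274 and 1094, a difference of -0.22. VPS9D1, which carries a VPS9 domain, read 62.0 and 55.5 and lay just below the level required for comparison.

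Across the 62 compared genes the difference was unrelated in rank to the mean level, with a Spearman rho of -0.04, where it was -0.22 over all 12421 compared genes. With the span of the gene in the reference annotation rho was -0.02 over the 62 genes. All of these points come from the same pair of samples.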
